A study of Mus musculus with 12 samples.

Results

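The genes described here belong to the response of gut epithelial cells to the cytokine IL-22 through the transcription factor STAT3. They are *Il22ra1*, *Stat3*, *Socs3*, *Fut2*, *Il18*, *Saa1*, *Lcn2*, *Duox2*, *Duoxa2* and *Nos2*. They were picked by gene symbol, and all 10 had a row among the 14244 gene rows of the table. RNA was sequenced from gut epithelial cells of C57BL/6 mice, all male littermates aged 8 weeks, with 1 library per mouse. The 5 WT libraries came from wild type mice, and the 7 Chd8L+/- libraries came from mice in which a stretch of exons was deleted from 1 allele of *Chd8* in every cell of the body, not only in the gut. *Chd8* encodes a chromatin remodeler, and the deletion was aimed at its large isoform. No mouse received a treatment, and the gut segment from which the cells came was not given in the sources used here.

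IL-22 is made by lymphoid cells of the gut wall and acts on epithelial cells, which carry its receptor. The receptor is a pair of chains, IL22RA1 and IL10RB, and its kinases JAK1 and TYK2 phosphorylate STAT3, which enters the nucleus and switches on genes for antimicrobial proteins, for the coating of surface glycans with fucose and for its own inhibitor SOCS3. Several of the target genes also answer to other signals, such as bacterial products acting through NF-kappaB and interferon-gamma, so their RNA is not a readout of IL-22 alone.

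Values are normalized counts, in which the reads on a gene are scaled by how deeply its library was sequenced. The libraries held 15691662 to 20761315 reads on genes. *Chd8* itself was counted over the whole gene, so its count does not check the deletion, and it averaged 953 ± 85.5 (SD, n = 5) where the label was WT and 1297 ± 123 (SD, n = 7) where it was Chd8L+/-, with an adjusted p of 0.121 by limma. Pairs of values joined by "against" are, from here on, the mean and SD of the 5 WT libraries followed by those of the 7 Chd8L+/- libraries. Every direction given below is therefore between libraries as labelled. WT replicate 2 stood apart from the other WT libraries: on the first principal component of all genes, which held 39.7% of the variance, it lay at 41.0, the other 4 WT libraries lay between -67.5 and -26.2, and the Chd8L+/- libraries lay between 0.26 and 42.7. The fold change of each gene described and the number of genes called in each list are given with and without this library. Leaving out the WT library that lay among the Chd8L+/- libraries by itself draws the groups apart. Values without it therefore show how far a result depended on it and are not a second test of genotype. The 8 epithelial markers, which include *Epcam*, *Vil1* and *Krt8*, were abundant in every library, with a summed normalized count of 141441 to 271186 in WT and 139647 to 260296 in Chd8L+/- libraries. In bulk RNA of this kind, fewer cells of a type and less RNA per cell cannot be told apart.

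With all 12 libraries, none of the genes passed the test. Among those tested, the largest differences by limma were in the hydrogen peroxide-producing oxidase *Duox2*, its maturation factor *Duoxa2* and the fucosyltransferase *Fut2*, all lower in Chd8L+/- libraries. This order depended on the tool. In edgeR the log2 fold changes (Chd8L+/- over WT) were 1.86 for *Nos2* and -1.67 for *Duox2*, and 1.61 for *Saa1* and -1.28 for *Fut2*. DESeq2 gave the same order. Of the 9 genes that were abundant enough to be tested (mean of 10 or more), 0 had an adjusted p of 0.05 or less by limma with Benjamini-Hochberg adjustment, where 0.0234% of the 12808 genes tested did. By unadjusted p at the same threshold it was 3 of 9, all lower, where 24.3% of all genes reached it and 11.8% did so with a lower level. edgeR on the recovered reads called 0 of 9 (0.039% of all genes). DESeq2 called 1 of 10, *Fut2*, and gave *Lcn2* no adjusted p. It called 5.69% of all 14244 genes, where genes without an adjusted p are counted as not called. Without WT replicate 2, limma called 3 of 9, again *Duox2*, *Duoxa2* and *Fut2*, where it called 27.6% of all genes in either direction, so a share of this size was near that background. All 3 were lower, and 1745 of the 12807 genes tested were called lower. Whether 3 of 9 differs from that share was not tested. The counts in the gene lists below stand beside the same shares of all genes, 24.3% by unadjusted p and 27.6% without WT replicate 2. They were not tested against these shares.

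**Figure D1:**
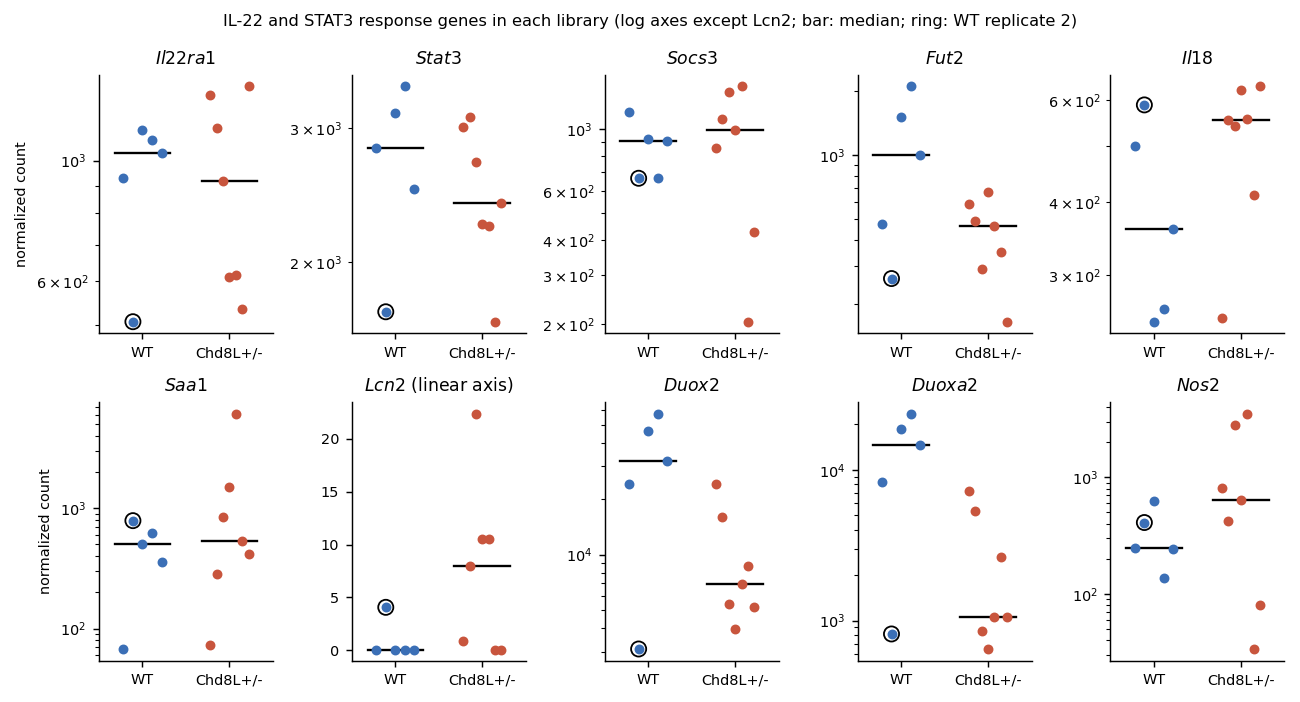
Normalized count of each gene in each library, WT in blue and Chd8L+/- in red, on log axes except for Lcn2, with a bar at the median and a ring around WT replicate 2. Duox2 and Duoxa2 in the 4 WT libraries without a ring lie above all 7 Chd8L+/- libraries, and Saa1 and Nos2 spread over 84.3-fold and 104-fold among the Chd8L+/- libraries.

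The receptor chain and the signal transducer were at similar levels in both groups. *Il22ra1*, the chain that makes a cell responsive to IL-22 (chromosome 4, 135728172 to 135752140, plus strand, in GENCODE M21 on GRCm38), had normalized counts of 931, 506, 1137, 1091 and 1034 in WT replicates 1 to 5. In Chd8L+/- libraries it ran from 533 over a median of 918 to 1369. The groups overlapped, with 3 Chd8L+/- libraries above every WT library and WT replicate 2 the lowest of all 12 libraries. The log2 fold change of *Il22ra1* (Chd8L+/- over WT, on the log2(value + 1) scale) was -0.05 ± 0.28 (SE), with an adjusted p of 0.921 by limma, and without WT replicate 2 it was -0.26 with an adjusted p of 0.474.

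*Stat3*, which encodes the transcription factor itself, lies on chromosome 11 (100885098 to 100939540, minus strand), where its annotated ends overlap *Stat5a* on the other strand by 72 bases. Its normalized counts were 2825, 1720, 3144, 3406 and 2497 in WT and 1669, 2389 and 3106 as the lowest, median and highest of the Chd8L+/- libraries. The groups overlapped over nearly their whole range, with WT replicate 2 and Chd8L+/- replicate 6 at the low ends. Its log2 fold change was -0.12 ± 0.19 (SE), with an adjusted p of 0.714, and without WT replicate 2 it was -0.28 with an adjusted p of 0.226. The spread of *Stat3* was small, with the highest library 1.98-fold above the lowest in WT and 1.86-fold in Chd8L+/-.

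*Socs3*, which encodes an inhibitor that STAT3 induces and that blocks the JAK kinases, lies on chromosome 11 (117966079 to 117970047, minus strand). It read 1150, 666, 921, 666 and 907 in WT and 204, 988 and 1422 as the lowest, median and highest in Chd8L+/-. The Chd8L+/- libraries spread over 6.97-fold and the WT libraries over 1.73-fold, with Chd8L+/- replicates 6 and 7 below every WT library and replicates 3 and 5 above. The log2 fold change was -0.14 ± 0.41 (SE), adjusted p 0.86, or -0.22 and 0.743 without WT replicate 2, and its sign turned with the method of analysis. Phosphorylation of STAT3 was not measured, and RNA levels of *Stat3* do not report it.

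Of the other 15 genes tested for the receptor and JAK-STAT signalling, 0 passed the adjusted threshold, 1 was higher and 4 were lower at an unadjusted p of 0.05 or less, and their median log2 fold change was -0.08, where the median of all genes tested was 0.01. The 4 lower genes were *Il10rb*, the second chain of the IL-22 receptor, and 3 inhibitors of the pathway, *Cish*, *Socs1* and the phosphatase gene *Ptpn6*. *Il10rb* was at 1778 ± 388 against 1102 ± 202, a log2 fold change of -0.68 with an adjusted p of 0.121, and without WT replicate 2 of -0.84 with an adjusted p of 0.00331. *Cish* and *Socs1* had log2 fold changes of -1.07 and -1.08, and *Ptpn6* of -0.98, each with an adjusted p between 0.121 and 0.129, and all 3 passed the test without WT replicate 2. *Il6st*, the shared chain of the IL-6 family receptors, had a log2 fold change of 0.41 (adjusted p 0.202). *Jak2*, the most abundant by count, was at 3595 ± 972 against 3021 ± 987. The count of calls without WT replicate 2 was 1 higher and 4 lower, where 27.6% of all genes were called in either direction. *Il22* itself was not analysed here.

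Among the effectors on the cell surface, *Fut2* encodes the enzyme that adds fucose to glycans of the epithelial surface, on which gut bacteria feed. It lies on chromosome 7 (45648591 to 45666394, minus strand). In WT replicates 1 to 5 it read 476, 263, 1505, 2097 and 994, a 7.98-fold span, and in Chd8L+/- libraries it ran from 165 over a median of 465 to 672. None of the 7 Chd8L+/- libraries reached the WT median of 994, and WT replicates 1 and 2 lay within the Chd8L+/- range. The log2 fold change was -1.06 ± 0.47 (SE), with an adjusted p of 0.189 by limma and a p of 0.0846 in the exact permutation test (two-sided, over 792 assignments of the genotype labels, with a smallest possible p of 0.00126). *Fut2* passed the threshold in DESeq2 (adjusted p 0.0452) and, in limma, without WT replicate 2 (log2 fold change -1.48, adjusted p 0.019), and over all alternatives its adjusted p ran from 0.000587 to 0.432.

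The 10 other genes of fucosylation had fold changes in both directions. At an unadjusted p of 0.05 or less, 4 were higher and 1 was lower, 0 passed the adjusted threshold, and their median log2 fold change was 0.23. *Pofut1*, which puts fucose on Notch receptors, was at 365 ± 82.7 against 532 ± 45.2, a log2 fold change of 0.57 with an adjusted p of 0.121. *Gmds*, the first enzyme of GDP-fucose synthesis, had a log2 fold change of 0.77, *Fuk*, the kinase of fucose salvage, of 0.50, and *Tsta3*, the enzyme after *Gmds*, of -0.27, with adjusted p between 0.145 and 0.155. The lysosomal fucosidase gene *Fuca1* had the highest count, 3357 ± 668 against 2928 ± 436. When WT replicate 2 was left out, 4 of the 10 passed, all higher, where 27.6% of all genes passed in either direction.

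*Il18* encodes a cytokine that epithelial cells store as an inactive precursor. It lies on chromosome 9 (50554827 to 50581840, plus strand) and overlaps *Bco2* and *Tex12* on the other strand. Its normalized counts were 500, 588, 249, 262 and 359 in WT, and 253, 554 and 633 as the lowest, median and highest in Chd8L+/-. Of the 7 Chd8L+/- libraries, 6 lay above the WT median, and WT replicate 2 was the highest WT library. *Il18* had a log2 fold change of 0.41 ± 0.26 (SE), adjusted p 0.338, and without WT replicate 2 one of 0.58 with an adjusted p of 0.108. Of the 7 tested genes that process IL-18 or bind it, *Nlrp6*, an inflammasome sensor, and *Pycard*, the inflammasome adaptor, were higher at an unadjusted p under the threshold, with log2 fold changes of 0.48 and 1.0 and adjusted p of 0.124 and 0.138. The median of that list was 0.21, and *Nlrp6* was its most abundant gene by count (2749 ± 669 against 3784 ± 505). Both passed without WT replicate 2 (adjusted p 0.00742 and 0.0114).

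The genes of secreted proteins varied widely between mice. *Saa1* encodes serum amyloid A, a retinol-binding acute phase protein that epithelial cells make in contact with bacteria, and lies on chromosome 7 (46740497 to 46742980, minus strand). Its normalized counts were 67.6, 788, 508, 619 and 354 in WT and 72.5, 535 and 6115 as the lowest, median and highest in Chd8L+/-. The medians, 508 and 535, were almost equal, and 3 Chd8L+/- libraries, replicates 3, 4 and 5, lay above every WT library. Its log2 fold change was 0.79 ± 0.89 (SE), adjusted p 0.6 (exact permutation test, p = 0.468), edgeR gave 1.61 with an adjusted p of 0.293, and with each library left out in turn limma gave 0.19 to 1.3, with 1.07 (adjusted p 0.428) without WT replicate 2. The spread of *Saa1* among Chd8L+/- libraries was wider than that of 99.4% of the genes tested. Over all its annotated transcripts, *Saa1* shares 18.5% of its 75-base stretches with *Saa2*. The longest coding transcripts of *Saa1* and *Saa2* were 94.4% identical over 606 aligned bases, so reads may have been split between the 2 genes. *Saa2* was also the gene whose levels were most like those of *Saa1* over the 12 libraries (r = 0.958, of 10673 genes compared). The part of shared reads in this likeness was not tested.

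*Lcn2* encodes lipocalin 2, which binds bacterial siderophores and so withholds iron, and lies on chromosome 2 (32384633 to 32388252, minus strand). It was near the limit of detection in these cells: 4 of 5 WT libraries had 0 reads, and WT replicate 2 had 4 reads, a normalized count of 4.06. The Chd8L+/- libraries ran from 0 over a median of 8.00 to 22.4 in replicate 3, with 4 of 7 above every WT library. A count of 0 allows up to 3 reads by counting error alone. With a mean of 4.69, *Lcn2* was under the minimum and was not tested. The exact permutation test gave p = 0.0833, and limma without the minimum gave a log2 fold change of 1.77 ± 0.87 (SE) with an adjusted p of 0.234, or 2.24 and 0.0829 without WT replicate 2. DESeq2 without WT replicate 2 called it (adjusted p 0.00743), and the range over the alternatives was 0.00743 to 0.234. Neutrophils are a rich source of lipocalin 2. Of 9 neutrophil markers 2 had a row, *Csf3r* and *Ly6g*, with a summed normalized count of 0 to 37.5 in WT and 3.55 to 40.8 in Chd8L+/- libraries, *Csf3r* was at 0 in 2 WT libraries, *Ly6g* was abundant enough to be tested and was called neither with nor without WT replicate 2, and their part in the result was not tested.

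Other targets of the pathway had fold changes in both directions. Of 22 tested, 0 passed the adjusted threshold, 5 were higher and 3 lower at an unadjusted p of 0.05 or less, and the median log2 fold change was 0.15. The bactericidal lectin gene *Reg3b* had the highest count of the list, at 7457 ± 8965 against 59249 ± 66769, a log2 fold change of 2.76 with an adjusted p of 0.129, and the related *Reg3g* had a log2 fold change of 2.66 with an adjusted p of 0.147. *Reg3b* ran from 5874 to 176829 among the Chd8L+/- libraries, with replicates 3, 4 and 5 highest, the same libraries that were highest for *Saa1*. *Reg3a* and the mucosal scavenger receptor gene *Dmbt1* had log2 fold changes of 2.40 and 2.29 (adjusted p 0.121 for both). *Bcl2l1*, an inhibitor of apoptosis, was at 1561 ± 448 against 1054 ± 166, a log2 fold change of -0.53 with an adjusted p of 0.135. After leaving out WT replicate 2, 6 of the 22 passed as higher and 2 as lower, where 27.6% of all genes passed in either direction.

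By limma, the oxidant-producing enzymes held the largest differences of the genes tested. *Duox2* encodes a dual oxidase of the apical membrane that releases hydrogen peroxide into the gut lumen, and *Duoxa2* encodes the partner that the oxidase needs to leave the endoplasmic reticulum. The genes lie head to head on chromosome 2: *Duox2* on the minus strand (122279247 to 122298449) and *Duoxa2* on the plus strand (122298900 to 122302885), with their starts 451 bases apart, and *Duoxa2* shares 695 bases with *Duoxa1* on the other strand. The 250 bases before the start of *Duoxa2* are shown because they are part of the stretch between these genes, whose levels moved together. RefSeq places the start of *Duox2* farther from *Duoxa2* than GENCODE does, so the share of that stretch depends on the annotation. They come from RefSeq on GRCm38.p6 (chr2:122298650-122298899, plus strand), with the letters TATAAA in capitals, from position -30 counted from the start.

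Duoxa2: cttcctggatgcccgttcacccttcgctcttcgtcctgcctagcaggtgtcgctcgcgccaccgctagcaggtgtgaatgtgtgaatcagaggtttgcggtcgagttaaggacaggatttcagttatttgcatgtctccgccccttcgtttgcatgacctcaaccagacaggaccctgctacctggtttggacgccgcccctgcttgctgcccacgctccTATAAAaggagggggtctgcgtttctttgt

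The letters TATAAA, searched on the strand of the gene, were in the windows of 1 of the 8 genes for which RefSeq gave a window (250 bases before to 50 after the start), *Duoxa2*, and in 8.32% of all 32817 windows. The STAT-like letters TTCNNNGAA, which read the same on both strands, were in 1 of 8, *Socs3*, as TTCTTAGAA from position -154 (counted from the start), and in 8.29% of all windows. The stricter TTCCNGGAA was in 0 of 8 and in 1.15% of all windows. A match of this kind is a description of the letters and not a site of binding. Windows and positions are counted from the RefSeq start, which can lie inside the gene as GENCODE places it. This held for all 250 bases before the start of *Socs3* and *Lcn2* and for 222 of those of *Duox2*. *Fut2* and *Nos2* were without a window.

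*Duox2* read 24031, 3097, 46037, 57477 and 31717 in WT replicates 1 to 5 and 23872, 15990, 5445, 3982, 6976, 8715 and 5222 in Chd8L+/- replicates 1 to 7. The 4 other WT libraries, at 24031 or more, lay above all 7 Chd8L+/- libraries, of which replicate 1 came within 1 percent of the lowest of them, while WT replicate 2 was the lowest library of all. The medians were 31717 and 6976, 4.55-fold lower in Chd8L+/- libraries. The log2 fold change was -1.47 ± 0.65 (SE), with an adjusted p of 0.187 by limma and a p of 0.0833 in the exact permutation test. Without WT replicate 2 it was -2.19 ± 0.44 (SE), with an adjusted p of 0.00556 (exact permutation test over 330 assignments, p = 0.00606, the smallest possible being 0.00303), and over all alternatives the adjusted p ran from 0.00373 to 0.419. With any library other than WT replicate 2 left out, limma gave an adjusted p of 0.162 to 0.419. Over all its annotated transcripts, *Duox2* shares 3.39% of its 75-base stretches with *Duox1*.

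*Duoxa2* was high and low in much the same libraries. It read 8328, 815, 18746, 23560 and 14686 in WT and 7231, 5343, 848, 648, 1060, 2623 and 1049 in Chd8L+/-. Again the 4 other WT libraries lay above all 7 Chd8L+/- libraries, and WT replicate 2 lay among the low Chd8L+/- libraries, with only replicate 4 below it. The medians were 14686 and 1060, 13.9-fold lower in Chd8L+/- libraries. The log2 fold change was -2.23 ± 0.82 (SE), with an adjusted p of 0.138 by limma and a p of 0.048 in the exact permutation test. With any library other than WT replicate 2 left out, limma gave an adjusted p of 0.152 to 0.352. Without WT replicate 2 the log2 fold change was -3.08 ± 0.62 (SE), with an adjusted p of 0.00537 (exact permutation test, p = 0.00606). *Duoxa2* also passed with the opening letter of the library name as a block, a letter whose meaning the labels do not give (adjusted p 0.0481, as 1 of 9 genes where 3.52% of all genes were called), and its adjusted p ran from 0.00357 to 0.352 over all alternatives. With that library left out, these were the 2 of 9 genes whose groups did not overlap, where 14.4% of all genes did not overlap and 7.72% did so with a lower level in Chd8L+/-. With all 12 libraries 0 of 9 had groups that did not overlap, against 0.515% of all genes.

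**Figure D2:**
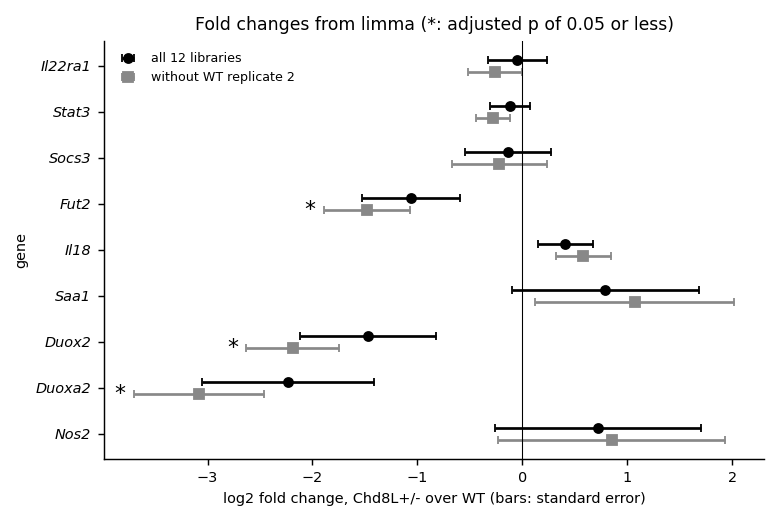
Log2 fold change of the 9 genes tested, Chd8L+/- over WT, from limma with all 12 libraries (black circles) and without WT replicate 2 (grey squares), with bars of 1 standard error and a star where the adjusted p was 0.05 or less. The stars are on Fut2, Duox2 and Duoxa2 without WT replicate 2, at -1.48, -2.19 and -3.08, and no black circle has one.

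The levels of oxidase and maturation factor moved together over the libraries. Other genes followed each of them almost as closely, *Sap30l* with *Duox2* (r = 0.98) and *Prelid1* with *Duoxa2* (r = 0.981). The libraries share their genotype differences and the first principal component, so the test below does not show a relation particular to this pair. Pearson's r of *Duox2* and *Duoxa2* on the log2 scale was 0.99 and Spearman's rho was 0.99 over 12 libraries (two-sided permutation test of each, p = 1e-05, the smallest that 100000 permutations can give, adjusted over 3 pairs 3e-05). It was 0.98 without WT replicates 3 and 4, the libraries farthest from the median of *Duox2*, and 0.98 among the 7 Chd8L+/- libraries (exact permutation test, p = 0.000595, adjusted 0.00179). Per kilobase of annotated exon, *Duoxa2* over *Duox2* was between 1.12 and 1.97 in WT (median 1.73) and between 0.646 and 1.42 in Chd8L+/- libraries (median 0.855). From the lowest to the highest library, *Duoxa2* spanned 28.9-fold in WT and 11.2-fold in Chd8L+/-, and *Duox2* spanned 18.6-fold and 6.0-fold. The ratio was chosen after the values were seen and was not tested. *Duoxa2* and *Duox2* ranked 159 and 246 per kilobase of annotated exon among 12629 genes with a length.

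**Figure D3:**
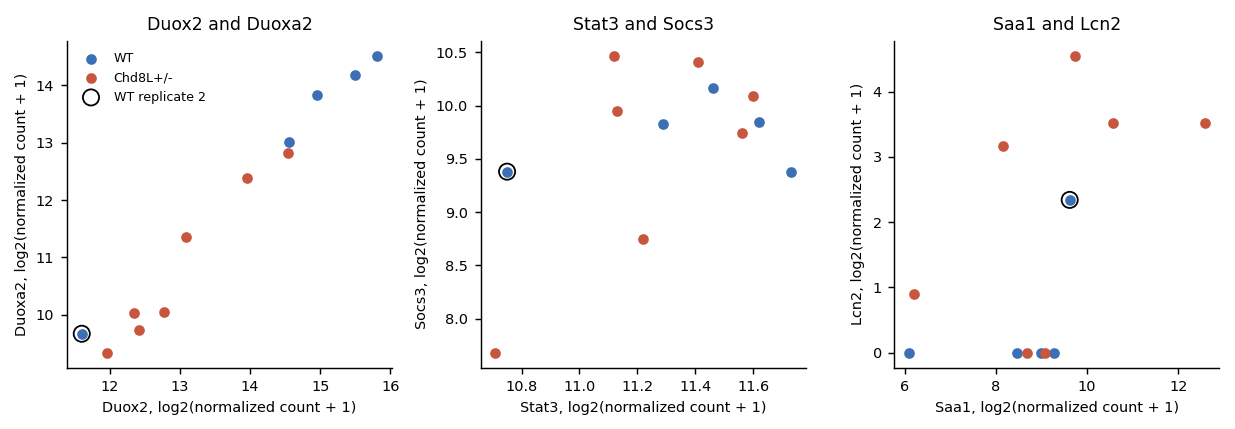
Log2(normalized count + 1) of 3 pairs of genes over the 12 libraries, WT in blue, Chd8L+/- in red and WT replicate 2 ringed. Duox2 and Duoxa2 lie close to a line (r = 0.99), while Stat3 with Socs3 (r = 0.51) and Saa1 with Lcn2 (r = 0.54) are scattered.

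The other pairs showed no relation that passed the test. *Stat3* and its target *Socs3* had an r of 0.51 (permutation test, p = 0.0847, adjusted 0.0847) and a rho of 0.22 (permutation test, p = 0.499), and r was -0.11 without WT replicate 2 and Chd8L+/- replicate 6, the libraries farthest from the median of *Stat3*. Leaving out 1 library at a time, r was 0.54 without WT replicate 2 and 0.13 without Chd8L+/- replicate 6, so the pooled value rested on the latter. *Saa1* and *Lcn2* had an r of 0.54 (permutation test, p = 0.0722, adjusted 0.0847) and a rho of 0.57 (p = 0.0569, permutation test), and r was 0.37 without WT replicate 1 and Chd8L+/- replicate 5. Among the Chd8L+/- libraries alone, r was 0.67 for *Stat3* and *Socs3* (exact permutation test, p = 0.105) and 0.52 for *Saa1* and *Lcn2* (exact permutation test, p = 0.246).

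Related enzymes gave a mixed picture. Of the 11 other genes of the NADPH oxidases and of nitric oxide synthesis, 0 passed the adjusted threshold, 1 was higher and 3 were lower at an unadjusted p of 0.05 or less, and the median log2 fold change was -0.14. *Duoxa1*, the maturation factor of the other dual oxidase, was at 228 ± 160 against 38.2 ± 23.7, a log2 fold change of -2.10 with an adjusted p of 0.126. Its annotated overlap with *Duoxa2* means that, without strand, reads of the 2 genes in the shared bases cannot be told apart. *Gch1*, whose product makes the cofactor of nitric oxide synthase, had a log2 fold change of -0.95 and *Asl*, an enzyme of arginine synthesis, of -0.34 (adjusted p 0.121 and 0.128). *Nox1*, the oxidase of the colon, had a log2 fold change of 1.28 (adjusted p 0.172) at 30.1 ± 33.9 against 54.2 ± 27.9, and *Arg2* had the highest count, at 4495 ± 780 against 3503 ± 1193. In limma without WT replicate 2, 2 passed as higher and 4 as lower, where 27.6% of all genes passed in either direction.

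*Nos2* encodes the inducible nitric oxide synthase and lies on chromosome 11 (78920787 to 78960254, plus strand). It read 245, 409, 628, 136 and 242 in WT and 808, 418, 2779, 643, 3513, 33.7 and 81.0 in Chd8L+/- replicates 1 to 7. The Chd8L+/- libraries surrounded the WT range, with 4 above every WT library and 2, replicates 6 and 7, below, and the same replicates 6 and 7 were below every WT library for *Socs3*. The medians were 245 and 643, 2.62-fold higher in Chd8L+/- libraries. For *Nos2* the log2 fold change was 0.72 ± 0.98 (SE), adjusted p 0.672 by limma (exact permutation test, p = 0.539), edgeR gave 1.86 with an adjusted p of 0.237, and with each library left out in turn limma gave 0.25 to 1.36, with 0.85 (adjusted p 0.592) without WT replicate 2. The spread of *Nos2* among the Chd8L+/- libraries, 104-fold from lowest to highest, was wider than that of 99.8% of the genes tested.

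**Figure D4:**
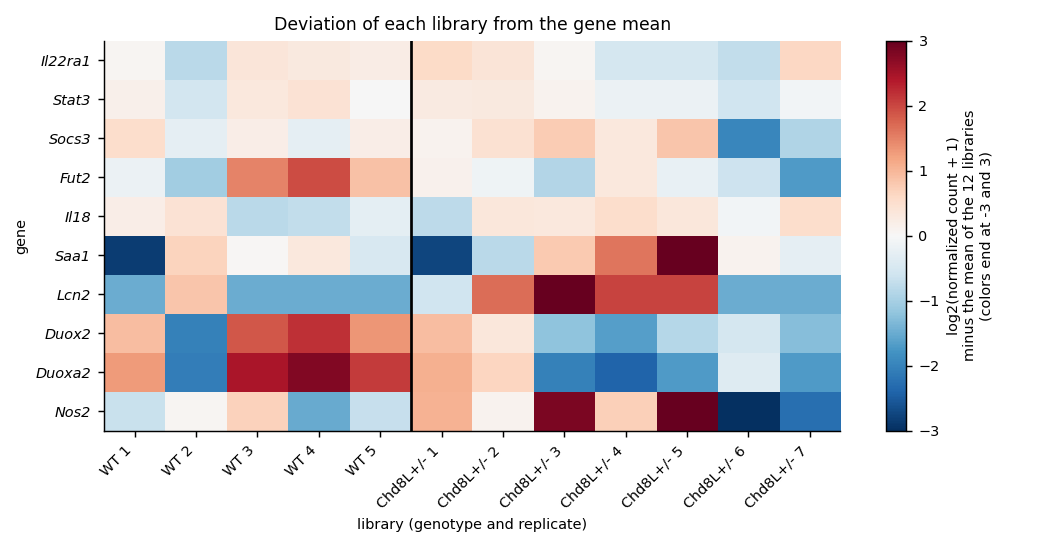
Deviation of log2(normalized count + 1) from the mean of the 12 libraries, for each gene (rows) and library (columns, WT left and Chd8L+/- right of the line), red above and blue below the mean. WT replicate 2 is blue for Duox2, Duoxa2 and Fut2 where the other WT libraries are mostly red, and Chd8L+/- replicates 3 and 5 are red for Saa1, Lcn2 and Nos2.

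Set side by side, the genes did not move as a block. Of the 9 tested, 3 had a higher and 6 a lower fitted level in Chd8L+/-, and the median of their log2 fold changes was -0.12, where that of all genes was 0.01. WT replicate 2 held the lowest WT value for 6 of the 10 genes and the highest for 3. As a description over the 12 libraries, which share their genotype differences and the first principal component, *Duox2* had an r of 0.81 with *Fut2*, 0.73 with *Stat3* and -0.84 with *Il18*, while *Socs3* had an r of 0.85 with *Nos2* and 0.11 with *Duox2*. By level per kilobase in WT, *Duoxa2* (8308 ± 5596 (SD, n = 5)) and *Duox2* (4796 ± 3084 (SD, n = 5)) were the highest, and *Il18*, *Il22ra1*, *Socs3*, *Stat3*, *Fut2* and *Saa1* followed between 380 and 189, each neighbour in that order differing by less than the larger of their SDs. *Nos2* (75.3 ± 43.6 (SD, n = 5)) and *Lcn2* (0.309 ± 0.692 (SD, n = 5)) were the lowest. Length here was that of all annotated exons of a gene joined, which can exceed that of its main transcript. For *Saa1* it was 2478 bases, where its longest coding transcript aligned with that of *Saa2* over 606. The place of *Saa1* in this order is therefore uncertain.

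The genes outside the list whose levels were most like each of them, by Pearson's r over the 12 libraries among 10673 genes with a mean of at least 50, are given as a description. For *Duox2* these were *Sap30l* (r = 0.98), *Zfp710* and *Rnf14* (both 0.971), and for *Duoxa2* they were *Prelid1* (0.981), *Acss1* and *Egln3* (both 0.976). For *Il22ra1* they were *Nhsl1* (0.958), *Mttp*, which encodes the transfer protein that loads lipoproteins with triglyceride (0.947), and *Ly75* (0.938), and for *Stat3* they were *Ablim1* (0.981), *Rab11fip3* (0.977) and the desmosome gene *Pkp3* (0.967). *Socs3* was nearest to *Plb1* (0.953), *Slc13a2* (0.922) and *Alpk1* (0.906), and *Nos2* to *Alpk1*, a kinase that senses bacterial sugars (0.936), *Tifa*, an adaptor of NF-kappaB signalling (0.918), and *Slitrk6* (0.909). *Fut2* was near *Trir* (0.949) and *Rap2a* (0.941), *Il18* near *2210407C18Rik* (0.902), *Ddb2* and *Jag1* (both 0.869), and *Saa1*, after *Saa2*, near *Nrbp2* (0.913) and *Pdzk1ip1* (0.898).

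Markers of other cells and of gut segments also varied between the libraries, and their part in the results above was not tested. Of 11 macrophage and monocyte markers tested, 5 were higher and 1, *Ptprc*, which other leukocytes also express, was lower by unadjusted p. Their median log2 fold change was 0.97. The summed normalized count of the list was 2447 to 3884 in WT and 2619 to 5286 in Chd8L+/- libraries, and *Lyz2* and *Ptprc* made up most of it. *Itgam*, *Cx3cr1* and *C1qa* had log2 fold changes of 1.35, 1.17 and 1.12 (adjusted p 0.121 to 0.128), *Ptprc* of -0.64 (adjusted p 0.187), and *Lyz2* had the highest count, 1345 ± 719 against 1782 ± 537. With all libraries 0 of the 11 passed the adjusted threshold, and without WT replicate 2 there were 6 that passed as higher and 1 as lower, with a median of 1.27. Of 6 stromal and endothelial markers tested, the collagen genes *Col3a1*, *Col1a2* and *Col1a1* were higher at that level (log2 fold changes 2.77, 2.30 and 1.76, adjusted p 0.122 to 0.197), with *Dcn* the highest at 26.6 ± 48.7 against 118 ± 155, and the sum of the list was 60.4 to 394 in WT and 93.8 to 1345 in Chd8L+/- libraries. These 3 collagen genes passed the adjusted threshold without WT replicate 2, when the median was 2.61, and 0 of the 6 passed with all libraries (median 1.90). The highest sum of both lists was in Chd8L+/- replicate 5, which was also the highest library for *Saa1*, *Nos2* and *Socs3*. The sum of the lymphocyte markers was highest in that library too, at 5252, where it ran from 1260 to 3160 in WT. None of the 10 lymphocyte markers tested reached an unadjusted p of 0.05 with or without WT replicate 2, their median log2 fold change was -0.20, and *Jchain* was the highest at 706 ± 469 against 816 ± 940. Of the epithelial markers, *Krt18* was lower at an unadjusted p under the threshold (log2 fold change -1.08, adjusted p 0.121, and -1.34 with 0.00405 without WT replicate 2, as the 1 marker of this list called), and *Krt8* was the highest, at 53517 ± 10588 against 46797 ± 10458.

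The markers of gut segments were read because several of these genes differ along the gut. Summed markers of the proximal small intestine ran from 116157 to 236134 in WT and from 58126 to 285278 in Chd8L+/- libraries, with *Rbp2*, a retinol-binding protein, at a log2 fold change of -1.11 (adjusted p 0.129) and *Apoa4* the highest at 93293 ± 26494 against 73146 ± 52146. Markers of the distal small intestine summed to 11006 to 38453 and 4620 to 51548, with *Nr1h4*, the bile acid receptor, at a log2 fold change of 0.83 (adjusted p 0.145) and the bile acid carrier gene *Fabp6* the highest at 7736 ± 6974 against 9699 ± 8228. Colon markers summed to 6399 to 13160 and 6549 to 38877, with *Slc26a3* and *Muc4* at log2 fold changes of 0.57 and 0.71 (adjusted p 0.133 and 0.135) and *Car1* the highest at 1806 ± 2171 against 4171 ± 6916. All 3 lists were detected in every library, and the median log2 fold changes were -0.12, -0.33 and 0.28. None of their genes passed the adjusted threshold with all libraries, and without WT replicate 2 the medians were -0.19, -0.64 and 0.73, with 1 proximal (*Rbp2*) and 1 distal gene (*Osgin1*, chosen after its values were seen) called lower and 2 colon genes (*Slc26a3* and *Muc4*) called higher. WT replicate 2 had the lowest proximal and distal sums and the highest colon sum of the WT libraries. Chd8L+/- replicate 6, the lowest Chd8L+/- library for *Stat3*, *Socs3* and *Nos2*, held the lowest distal sum, 4620, with *Fabp6* at 42.8. Replicate 7, also below every WT library for *Socs3* and *Nos2*, had a distal sum of 16668. The part of gut segment in these values was not tested.

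**Figure D5:**
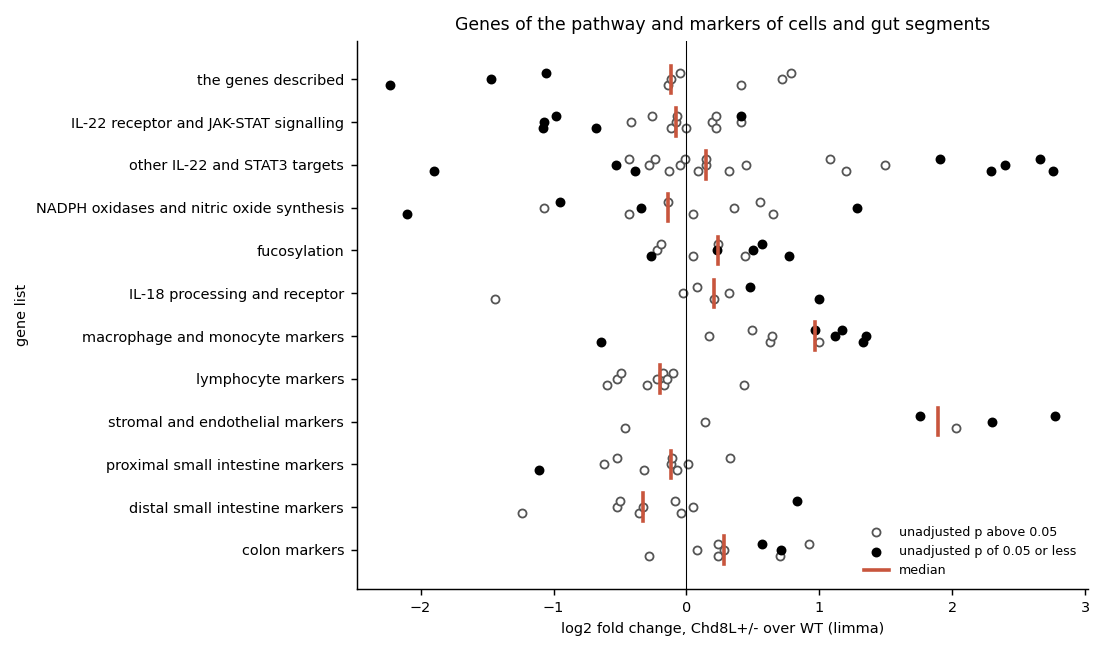
Log2 fold change, Chd8L+/- over WT, of each gene tested (points, filled where the unadjusted p was 0.05 or less), in rows for the genes described here, for other genes of the pathway and for markers of cells and gut segments, with the median of each row in red. The genes described have a median of -0.12, the macrophage and monocyte markers of 0.97 and the stromal and endothelial markers of 1.90.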

How the data were processed

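Poly(A) RNA of each mouse was sequenced by the authors as single-end reads and mapped to mm10 with Tophat2, and the DESeq2 pipeline was run. The deposited values are a signal, namely normalized counts, which the authors made by dividing raw reads per gene by library size factors. The program and annotation used for counting, and whether strand was used, are not given in the sources used here. Dividing each deposited column by its smallest step gave whole reads for 100% of the values (to within 0.01 of a whole number), and 0 columns were left unused. Recovered totals were 15691662 to 20761315 reads per library, and relative counting error is largest for genes with few reads. As the table holds normalized values, count tests were run only as alternatives, on the recovered reads.

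Genotypes were compared with limma's moderated fit with a mean-variance trend (version 3.58.1, R 4.3.3), applied to log2(value + 1) of 12808 genes with a mean of at least 10, with Benjamini-Hochberg adjustment and a threshold of 0.05. For single genes an exact permutation test over the libraries, two-sided, was added. Alternatives were pseudocounts of 0.5 and 5, quantile normalization, no filter, a minimum of 10 in each library, DESeq2 1.42.0 and edgeR 4.0.16 on recovered reads, the replicate number or library letter as a block and each library left out. edgeR, DESeq2 and no filter without WT replicate 2 were added after seeing the data. Each library came from its own mouse, so p-values measure the spread between these mice. The steps were tested on simulated counts in which all genes varied alike beyond counting error and no library stood apart. That test therefore does not bear on the differences between tools given here.

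The genes and the gene lists were chosen with earlier results of these data known. From each list the text names up to 4 genes of smallest unadjusted p at 0.05 or less and the gene of highest mean, besides *Reg3b*, *Reg3g* and *Chd8*, and for each gene described the 3 genes of highest r, less 1 whose name a spreadsheet had altered. The list of IL-22 sources and inducing cytokines is not reported here. *Saa2*, *Csf3r*, *Ly6g*, *Duox1*, *Bco2*, *Tex12* and *Stat5a* are named for their shared sequence or as markers. *Il6st* and *Ptprc* are named outside this rule, as the genes that went the other way in their lists. *Ptprc* stands in place of *C1qc*, whose unadjusted p was smaller. Positions are from GENCODE M21 on GRCm38, and lengths, of all annotated exons of a gene joined, were found for 98.5% of the genes. Promoter windows are from RefSeq on GRCm38.p6.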

Additional observations from a re-analysis of the deposited data

Results flagged for a closer look

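A library far from the others of its genotype was found in 2 of the 20 groups tested (each gene in each genotype), where chance alone gives about 1. *Il22ra1* in WT replicate 2 was the lowest of the WT libraries, with a log2(normalized count + 1) of 8.99, while the other 4 lay between 9.86 and 10.15. *Lcn2* in WT replicate 2 was the highest, at 2.34, while the other 4 were at 0, and this value rests on 4 reads. With the other 4 at 0, any read at all would have been flagged. The flag on *Lcn2* therefore says nothing about the library and should not be set against the number given by chance.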

How the results depend on the processing

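Limits: with 5 and 7 mice and WT replicate 2 far from the other WT libraries, counts of calls depended on that library and on the tool. The number of genes called was 3 with limma on all libraries, 5 with edgeR, 811 with DESeq2, 451 with the library letter as a block and 0 to 3534 with each library left out in turn, the highest without WT replicate 2. With any other single library left out it was 8 or fewer. Without WT replicate 2, edgeR called 3365, DESeq2 4112 and limma with no filter 3531, alternatives chosen after seeing the data. Of the IL-22 and STAT3 genes 0 were called with all libraries, 1 with DESeq2, 1 with the library letter as a block, 0 to 3 with each library left out, and without WT replicate 2 edgeR called 3, DESeq2 4 and limma with no filter 3. The causes were not tested. *Il22ra1* turned to 0.02 with quantile normalization, to 0.00 with edgeR and ran from -0.26 to 0.06 with libraries left out, on the log2 scale. *Stat3* turned to 0.01 with quantile normalization. *Socs3* turned to 0.09 with edgeR, 0.07 with DESeq2, 0.20 with the library letter as a block and 0.02 with edgeR without WT replicate 2, and ran from -0.29 to 0.18 with libraries left out. The 3 correlations kept their direction and their side of the threshold under other pseudocounts, with ranks, with deviations from the genotype means and with each single library left out, while r of *Stat3* and *Socs3* turned to -0.11 without WT replicate 2 and Chd8L+/- replicate 6 together. *Lcn2*, with few reads, was tested only where low genes were kept.

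Replicate numbers are shared by the genotypes, but same-numbered libraries did not deviate together. The correlation of their deviations was 0.189, -0.344, -0.129, -0.171 and -0.228 for numbers 1 to 5, with only number 1 best with its own. No pairing of mice by this number was therefore assumed. The number after the letter in the library names also recurs across the genotypes. Its meaning is not given in the sources used here, and it was not used as a block. With the replicate number as a block, over the libraries that share one, 0 genes in all and 0 of the IL-22 and STAT3 genes were called, and *Socs3* turned to 0.41.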

Other observations

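Of the other lists, 14 genes of the response to tissue dissociation were tested: 13 had a lower fitted level in Chd8L+/- libraries, 5 of these by unadjusted p, and the median log2 fold change was -0.44. The heat shock genes *Hspa1a* and *Hspa1b* fell, with log2 fold changes of -2.18 and -2.13 (adjusted p 0.0375 for both, limma), *Fos* (-1.02) and *Zfp36* (-0.56) did not pass, and *Fos* had the highest count, 4552 ± 1820 over the 5 WT and 2310 ± 1069 over the 7 Chd8L+/- libraries (mean ± SD). Without WT replicate 2, 5 of the 14 passed the adjusted threshold, all lower, against 2 with all libraries. Of 7 goblet cell markers tested, *Spink4* and *Clca1* were lower at an unadjusted p under the threshold (log2 fold changes -1.25 and -0.94, adjusted p 0.121 and 0.128), with a median of -0.12 and *Fcgbp* the highest at 55806 ± 25071 against 55639 ± 19377. *Spink4* and *Clca1* passed when WT replicate 2 was left out (adjusted p 0.0133 and 0.027). Of 6 Paneth cell markers tested, *Ang4*, an antimicrobial ribonuclease, had a log2 fold change of -1.93 (adjusted p 0.121), with a median of -0.24 and *Lyz1* the highest at 20406 ± 11298 against 26853 ± 7350. Leaving out WT replicate 2, *Ang4* passed as lower (adjusted p 0.0107) and *Lyz1* as higher (adjusted p 0.0212).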
